A study of Mus musculus with 24 samples.

Results

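Livers of WSB/EiJ and A/J mice kept on a choline- and folate-deficient diet were compared across all measured genes. The comparison took the 4 WSB/EiJ and the 4 A/J arrays of that diet, 8 of the 24 arrays of the series, and 15318 genes that passed a filter on background. The samples were chosen by strain and diet, and the genes by that filter alone. All mice were males of inbred strains, put on diet at 8 weeks of age and sampled after 12 weeks, at 20 weeks of age. The deficient diet was amino-acid-defined and supplemented with iron, lacked choline and folic acid, and held 0.17% methionine. The control groups of the same strains, also 4 arrays each, received the same iron-supplemented diet with folic acid at 2 mg/kg, choline bitartrate at 0.3% and methionine at 0.4%. A/J is a classical laboratory strain, and WSB/EiJ was derived from wild mice. The series, which also holds C3H/HeJ arrays, asks how inbred strains differ in the liver injury such a diet causes. Whether every array came from its own animal is not in the labels; p-values therefore reflect only how far these arrays vary, some of which may be technical.

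Choline is needed to make phosphatidylcholine, which coats both lipid droplets and the lipoproteins that carry triglyceride out of the liver, and folate and methionine feed the methyl groups from which the liver can make phosphatidylcholine itself. Rodents without these nutrients store fat in hepatocytes and go on to liver cell death, regeneration, inflammation and fibrosis. Hepatocytes make most plasma proteins and drug-metabolising enzymes, Kupffer cells are the resident macrophages, and stellate cells make scar collagen when activated.

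A level is the log2 processed signal of a gene's brightest probe minus the 75th percentile of its array, so that 0 is the brightness of the gene at that percentile. Differences are log2, WSB/EiJ minus A/J, where ± gives limma's standard error (n = 4 arrays per strain), and adjusted p is Benjamini-Hochberg over all 15318 genes, with 0.05 as the threshold. Levels are not compared between genes, because each probe has its own brightness. For a gene not well above background on any array of 1 strain, "at least" marks a minimum fold, computed with each dim array raised, where needed, to the faintest probe that was still well above background there.

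The arrays of each strain were alike (mean correlation with their own group between 0.987 and 0.992), and each had 48.9% to 55.5% of its gene spots well above background. A pair of arrays stood nearer to the control diet than the others. A/J deficient replicate 4 had the highest mean correlation of its group with the A/J controls (0.985, the others 0.973 to 0.982) and the lowest with WSB/EiJ on the deficient diet (0.914). It correlated at 0.987 to 0.989 with A/J controls 1 to 3 and at 0.977 with A/J control replicate 4. That control array, kept in the control comparison and the difference between diets, stood apart from its group on some lists. Its mean level was 0.77 for fetal and tumour-associated genes (the others -1.05 to -0.53) and 0.37 for clock genes (the others 1.32 to 1.7). WSB/EiJ deficient replicate 3 correlated best of its group with the WSB/EiJ controls (0.934, the others 0.904 to 0.914). Both stayed in the comparison, and the main counts are also given without them. Each strain's arrays lay on all 3 slides. The defining liver genes Alb, Ttr, Apoa1, Serpina1a and Cps1 were well above background on all 8 arrays.

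The strains differed at 9301 genes (60.7% of those tested), 3912 higher in WSB/EiJ (25.5%) and 5389 lower (35.2%). The median absolute difference over all genes was 0.49 against a median standard error of 0.13, and the levels of the strains did not overlap at 8571 genes (56%). Differences of at least 1 log2 unit were found at 3483 of the called genes, 1962 higher and 1521 lower. The split between directions depended on the scaling: 42.1% of the calls were higher in WSB/EiJ here, 57% with each array centred on its median and 68.5% with spike-in scaling, which moved the median difference of all genes from -0.12 to 0.06 and 0.18. Without A/J deficient replicate 4 there were 8448 calls (8284 shared, in the same direction), and without that array and WSB/EiJ deficient replicate 3 there were 8884. Some difference between 2 inbred strains can come from the probe's match to each genome, which was not tested; 2051 of 2512 called genes with several probes had all probes on the same side (81.6%).

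Of the gene lists, those of mitosis, matrix, fetal liver and tumour-associated genes and lipid-associated macrophages were mostly higher in WSB/EiJ, and those of cytochromes, pericentral genes, bile acid and cholesterol synthesis and fatty acid oxidation mostly lower. In bulk liver, fewer cells of a type and less RNA per cell cannot be told apart.

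**Figure D1:**
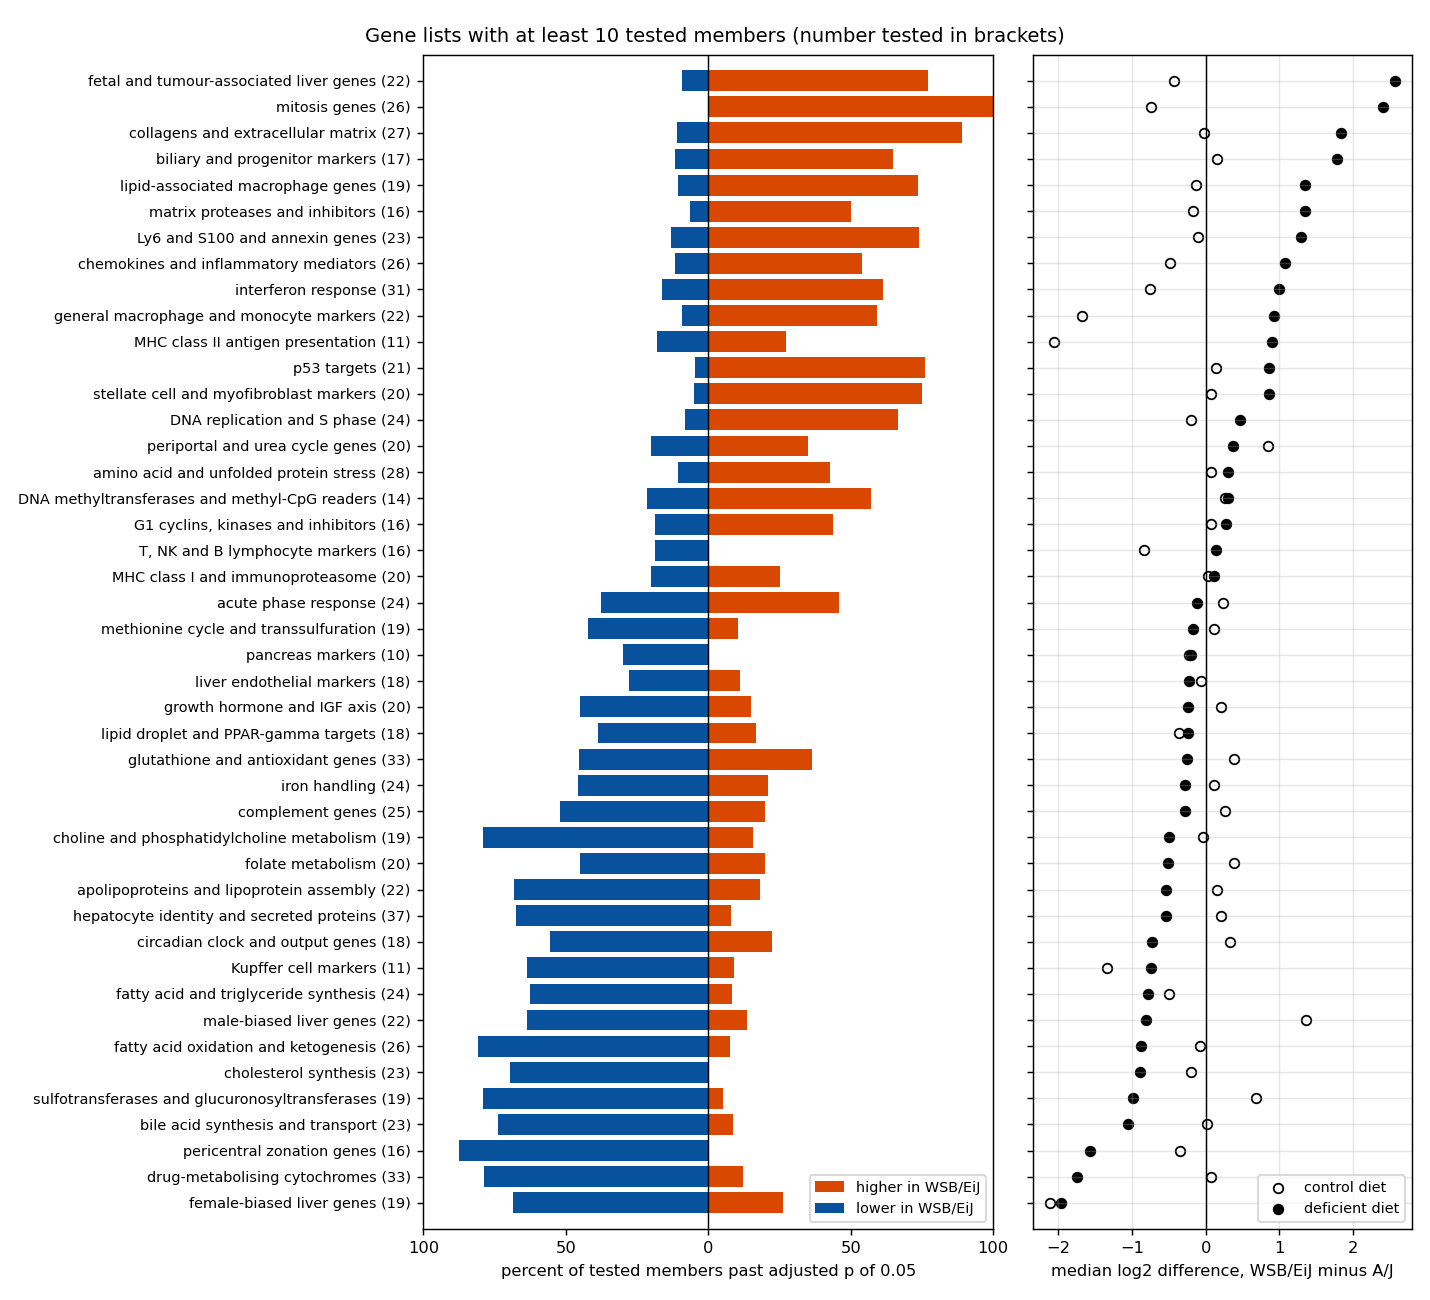
Gene lists with at least 10 tested members. Left, the percent of members past an adjusted p of 0.05 that were higher (orange) or lower (blue) in WSB/EiJ on the deficient diet; right, the median log2 difference, WSB/EiJ minus A/J, on the control diet (open) and the deficient diet (filled). All 26 mitosis genes lie on the higher side, and the median of the cytochromes moves from 0.07 on the control diet to -1.74 on the deficient diet.

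All 26 tested mitosis genes were higher in WSB/EiJ, against 25.5% of all genes, with a median difference of 2.41 (all genes -0.12) and members between 0.85 and 3.77. Every one was also higher under each scaling tried and without the pair of arrays nearest their controls. The mean level of the list on each array was -1.25, -1.54, -1.33 and -1.95 in A/J replicates 1 to 4 and 0.72, 0.99, 0.89 and 0.64 in WSB/EiJ. On the control diet the median was -0.74, with 6 members lower in WSB/EiJ and 1 higher. The mean levels on that diet were between -2.73 and -1.58 in A/J and between -3.3 and -2.67 in WSB/EiJ. There, 7 members were not well above background on any WSB/EiJ array and 2 on any A/J array. On the deficient diet this held for 2 members in A/J and 0 in WSB/EiJ. The values of such members lie near background.

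Tpx2, a spindle assembly factor, had the lowest adjusted p of the list: its level was -3.93, -4.24, -3.9 and -4.27 in A/J, where 2 of 4 arrays were well above background, and -0.44, -0.2, -0.17 and -0.43 in WSB/EiJ (3.77 ± 0.12, adjusted p = 5.9e-07). Mki67, the proliferation marker Ki-67, was at 0.87, 0.31, 0.62 and -0.24 in A/J and at 2.66, 2.91, 2.57 and 2.59 in WSB/EiJ, 4.88-fold higher (2.29 ± 0.23, adjusted p = 9.2e-05). On the control diet Mki67 was lower in WSB/EiJ (-1.48 ± 0.38, adjusted p = 0.013), and the difference between diets passed its own test (3.77, adjusted p = 2.9e-05). Anln, which builds the cleavage furrow, was 5.79-fold higher (2.53 ± 0.11).

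Promoters of mitosis genes often carry CCAAT boxes (CCAAT, or ATTGG on the other strand) and the cell-cycle homology region (TTTGAA, or TTCAAA), where NF-Y and the DREAM and MuvB complexes bind. Both motifs were searched on both strands in the 250 bases before the start in RefSeq's table for GRCm38.p6. Of the 26 tested mitosis genes, 21 matched the table; CCAAT was found in 17 (81%) against 37.5% of all 27025 genes and 73.3% of 15 circadian clock genes, and TTTGAA in 8 (38.1%) against 18.3%. These 4 promoters hold both motifs, in capitals, within 120 bases of the start, and were chosen after the values were seen; a match is a description of the letters, not evidence of binding.
Cdk1: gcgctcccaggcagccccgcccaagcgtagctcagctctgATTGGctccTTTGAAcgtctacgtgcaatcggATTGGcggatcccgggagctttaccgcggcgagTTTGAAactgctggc
Top2a: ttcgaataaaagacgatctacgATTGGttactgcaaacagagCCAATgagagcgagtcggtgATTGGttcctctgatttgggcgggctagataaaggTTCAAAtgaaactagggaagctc
Ube2c: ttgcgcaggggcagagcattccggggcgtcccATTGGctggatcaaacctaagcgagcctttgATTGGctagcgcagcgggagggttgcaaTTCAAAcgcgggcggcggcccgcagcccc
Cdc20: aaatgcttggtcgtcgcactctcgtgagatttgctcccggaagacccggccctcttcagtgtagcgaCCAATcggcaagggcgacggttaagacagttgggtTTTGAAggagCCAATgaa
The Cdk1 window is chr10:69352913-69353032 on the minus strand, that of Top2a chr11:99024190-99024309 on the minus strand, that of Ube2c chr2:164769809-164769928 on the plus strand, and that of Cdc20 chr4:118437344-118437463 on the minus strand, all in GRCm38.p6.

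The genes of these promoters were all higher in WSB/EiJ, with no overlap between strains. Cdk1, the kinase that drives entry into mitosis, was at -2.5, -2.77, -2.6 and -3.37 in A/J and at -0.25, 0.52, 0.19 and 0.03 in WSB/EiJ (2.93 ± 0.23, adjusted p = 2.6e-05). Top2a, which untangles replicated chromosomes, differed by 2.86 ± 0.39 (adjusted p = 0.00046), with A/J deficient replicate 4 lowest at -4.02. The ubiquitin-conjugating enzyme Ube2c was at -1.85, -1.98, -1.78 and -2.33 in A/J and at 0.8, 1.13, 1.08 and 0.71 in WSB/EiJ, 7.54-fold higher (2.91 ± 0.15, adjusted p = 4.4e-06). Cdc20, an activator of the anaphase-promoting complex, differed by 2.21 ± 0.21.

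Genes of DNA replication were higher in 16 of 24 and lower in 2 (median 0.47, members between -3.14 and 2.88). Their summed signal was not higher, at 116 to 158 in A/J and 99.9 to 126 in WSB/EiJ. Rrm2, the ribonucleotide reductase subunit that supplies deoxynucleotides, was 7.35-fold higher (2.88 ± 0.24, adjusted p = 4.3e-05). The replicative helicase subunit Mcm5 differed by 1.34 ± 0.12. Of 16 G1 cyclins, kinases and inhibitors, 7 were higher and 3 lower. Ccnd1, the cyclin of G1, did not pass: its levels overlapped, between 3.81 and 4.45 in A/J and between 4.12 and 4.65 in WSB/EiJ (0.09 ± 0.17, adjusted p = 0.66).

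Cell-cycle arrest genes were higher as well. Of 21 p53 targets, 16 were higher in WSB/EiJ and 1 lower (median 0.86). Cdkn1a, the kinase inhibitor p21, was at 0.58, 0.44, 1.02 and -0.3 in A/J and at 3.57, 3.35, 3.28 and 3.03 in WSB/EiJ, 7.32-fold higher (2.87 ± 0.26, adjusted p = 6.2e-05), and a second probe differed by 1.6. Btg2, an antiproliferative gene, was 5.01-fold higher (2.32 ± 0.2), and Ddit4l 9.66-fold (3.27 ± 0.29). Fas was the member lower in WSB/EiJ (-0.46). Cdkn2b, the inhibitor p15, was 3.73-fold higher on the deficient diet (1.9 ± 0.19, adjusted p = 1e-04) and lower on the control diet (-0.9 ± 0.28, adjusted p = 0.03).

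Of 22 fetal liver and tumour-associated genes, 17 were higher and 2 lower (median 2.57, and 2.22 without the pair of arrays nearest their controls). H19, an imprinted non-coding RNA of fetal liver, led the named genes that were higher and well above background on all 8 arrays. Its level was -2.25, -1.53, -2.08 and -2.99 in A/J and 6.29, 5.74, 5.58 and 4.91 in WSB/EiJ, 229-fold higher (7.84 ± 0.36, adjusted p = 2.6e-06; probe on chromosome 7, 149761492 to 149761551, mm9), and its 5 other probes differed by 6.51 to 8.29. On the control diet H19 lay between -4.67 and -3.66 on 3 A/J arrays and at 3.98 on A/J control replicate 4, so the control comparison for this gene has a wide error (-0.33 ± 1.84). Afp, alpha-fetoprotein, was at 0.91, 0.43, 0.87 and 0.65 in A/J and at 5.28, 3.66, 4.39 and 3.73 in WSB/EiJ, 11.7-fold higher (3.55 ± 0.34, adjusted p = 8.4e-05), and did not pass on the control diet (-0.11 ± 0.14).

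Golm1, a Golgi protein raised in liver disease, was 14.2-fold higher (3.83 ± 0.24, adjusted p = 1e-05). Gpc3, the oncofetal proteoglycan glypican-3, was 6.74-fold higher (2.75 ± 0.56, adjusted p = 0.0035), with 2 of 4 A/J arrays well above background. Bex1 was 25-fold higher (4.64 ± 0.38) on the deficient diet and 28.3-fold higher on the control diet, a strain difference present on both diets. Meg3, another imprinted non-coding RNA, was at -1.55, -2.49, -2.08 and -3.78 in A/J and at 2.36, 2.56, 2.09 and 2.48 in WSB/EiJ (4.85 ± 0.42, adjusted p = 4.8e-05), and was higher on the control diet too (3.42 ± 0.36). The members lower in WSB/EiJ were Tff3 (-1.5) and Lgr5 (-2.03), a Wnt target of pericentral hepatocytes. Igf2, the growth factor gene beside H19, was not among the tested genes.

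**Figure D2:**
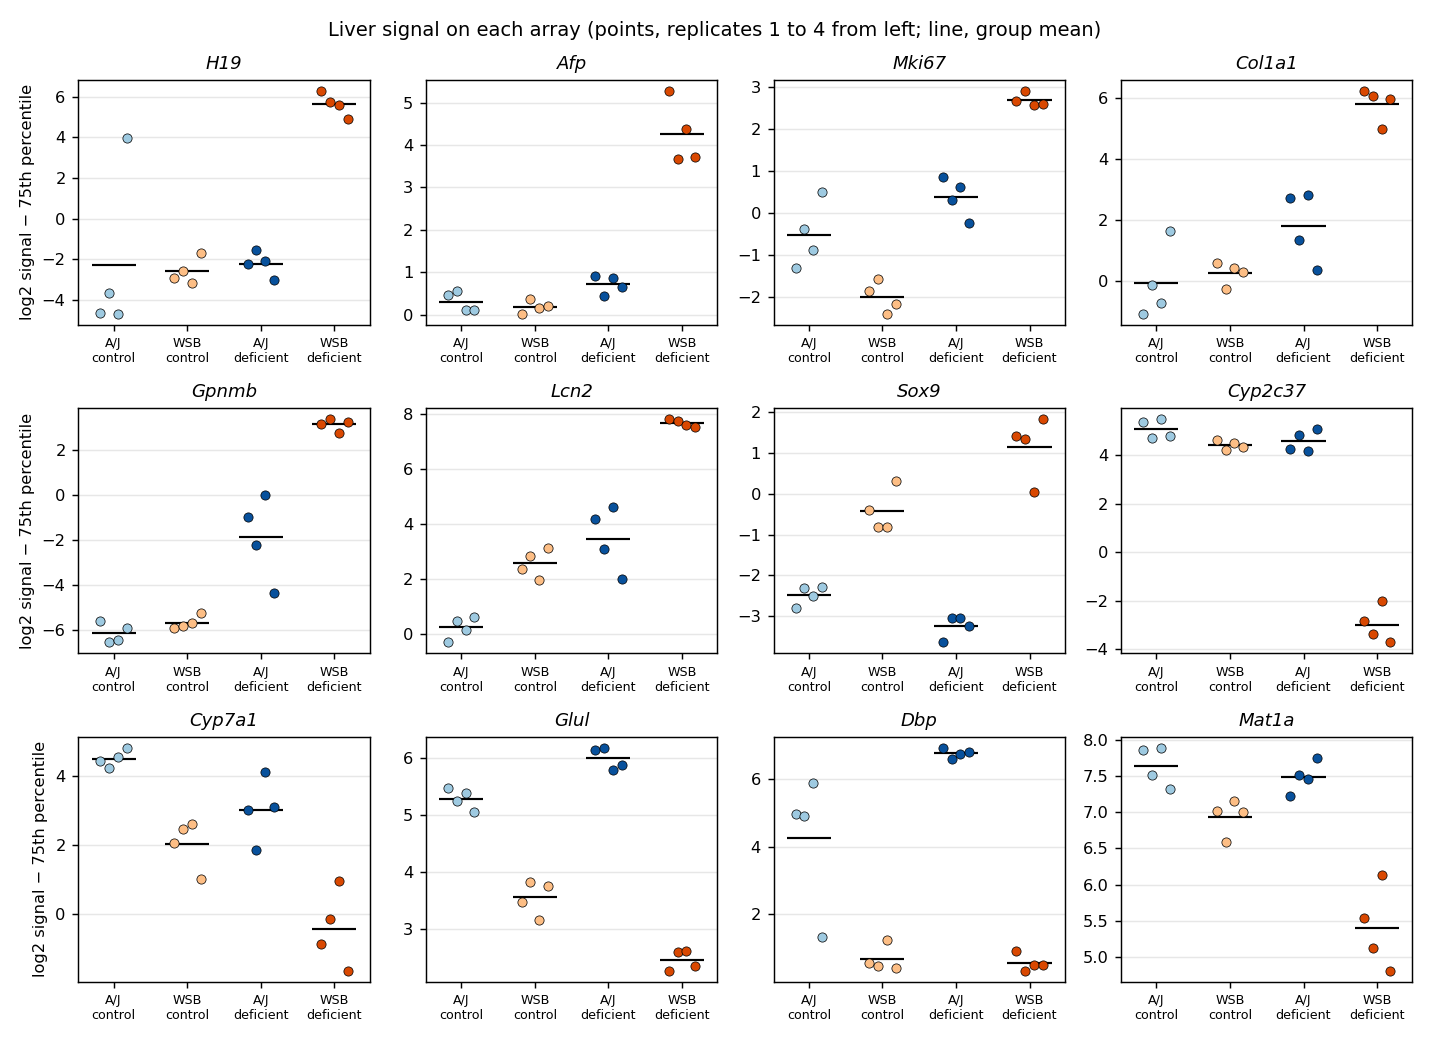
Level of 12 genes on each array (log2 signal minus the array's 75th percentile), for both strains on the control diet (pale) and the deficient diet (dark); points are replicates 1 to 4 from left to right and lines are group means. In WSB/EiJ on the deficient diet H19 lies between 4.91 and 6.29 and Cyp2c37 between -3.71 and -2.02, outside the range of the other 3 groups, among which A/J control replicate 4 is highest for H19 at 3.98.

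Matrix genes were higher in WSB/EiJ at 24 of 27 collagens and extracellular matrix genes and lower at 3 (Fn1, Vcan and Ecm1), with a median of 1.84 (-0.02 on the control diet). Col1a1, the main fibrillar collagen chain, was at 2.72, 1.34, 2.82 and 0.37 in A/J and at 6.22, 6.06, 4.97 and 5.97 in WSB/EiJ, 15.9-fold higher (3.99 ± 0.57, adjusted p = 0.00056). The lowest array of each strain was the one nearest its controls, A/J replicate 4 and WSB/EiJ replicate 3, and the strains did not overlap. Col3a1 differed by 2.86 ± 0.45 (adjusted p = 0.00093). Loxl2, an enzyme that crosslinks collagen, was steady within each strain, from -1.06 to -0.82 in A/J and from 1.97 to 2.51 in WSB/EiJ (3.22 ± 0.12, adjusted p = 1.1e-06). Col5a2 was higher on both diets (4.68 ± 0.42 and, on the control diet, 6.75 ± 0.44), with 2 and 1 of 4 A/J arrays well above background.

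Of 16 matrix proteases and inhibitors, 8 were higher and 1 lower. Timp1, an inhibitor of matrix proteases, was at 0.61, -0.86, 0.89 and -2.02 in A/J and at 3.24, 3.07, 2 and 3.24 in WSB/EiJ (3.23 ± 0.64, adjusted p = 0.003). Mmp2, a gelatinase, was 11.3-fold higher (3.5 ± 0.4), and the plasminogen activators Plat and Plau were 18-fold and 25.7-fold higher (4.17 ± 0.42 and 4.68 ± 0.5), with few A/J arrays well above background (2 for Plat and 1 for Plau). Stellate cell and myofibroblast markers were higher at 15 of 20 and lower at 1. Their summed signal, in multiples of the array's 75th percentile, was 72.6 to 101 in A/J and 142 to 254 in WSB/EiJ. Acta2, the smooth muscle actin of activated stellate cells, was at -0.15, 0.16, 0.04 and -0.22 in A/J and at 3.16, 2.23, 2.27 and 2.79 in WSB/EiJ (2.66 ± 0.21, adjusted p = 3.4e-05). The growth factors Ccn2 and Tgfb3 were 8.06-fold and 5.01-fold higher.

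Macrophage genes differed by class. Of 22 general macrophage and monocyte markers, 13 were higher in WSB/EiJ and 2 lower (median 0.93), whereas on the control diet 20 were lower and none higher (median -1.68). The mean level of the list was 1.77, 1.2, 1.81 and 0.86 in A/J and 2.36, 2.36, 2.1 and 2.25 in WSB/EiJ on the deficient diet, against -0.14 to 0.62 and -1.5 to -1.29 on the control diet. Cd14, a co-receptor for bacterial endotoxin, was at 1.94, 1.18, 2.26 and 0.63 in A/J and at 4.9, 4.72, 4.65 and 4.64 in WSB/EiJ, 9.34-fold higher (3.22 ± 0.33, adjusted p = 1e-04), and was lower on the control diet (-0.99 ± 0.24, adjusted p = 0.011). Lyz2, lysozyme, changed side in the same way (1.83 ± 0.29 and -2.03 ± 0.28), as did Cd68 (1.16 ± 0.18 and -1.85 ± 0.18). The receptor Tlr4 passed by a small margin (0.56 ± 0.17, adjusted p = 0.022), and leaving out single arrays took its adjusted p to as much as 0.06. Adgre1, which encodes F4/80, did not pass (0.37 ± 0.16, adjusted p = 0.073).

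Lipid-associated macrophage genes were higher at 14 of 19 and lower at 2 (median 1.35). Gpnmb, a glycoprotein of lipid-laden macrophages, was at -0.98, -2.24, 0 and -4.36 in A/J and at 3.16, 3.35, 2.75 and 3.25 in WSB/EiJ (5.02 ± 0.82, adjusted p = 0.0012). The A/J arrays varied far more than those of WSB/EiJ for this gene, and without A/J deficient replicate 4 the difference was 4.2 (adjusted p = 0.00042). Trem2, a lipid receptor of the same cells, was at 2.2, 1.2, 2.78 and 0.71 in A/J and at 5, 4.97, 4.47 and 4.94 in WSB/EiJ (3.12 ± 0.42, adjusted p = 0.00043). Cd9, a tetraspanin, was 4.3-fold higher, and the lysosomal protease Ctsd 1.57-fold higher.

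Of 11 Kupffer cell markers, 7 were lower in WSB/EiJ and 1 higher (median -0.74; 5 lower under spike-in scaling), and on the control diet 9 were lower and 1 higher (median -1.34). Their mean level was 3.58 to 3.83 in A/J and 1.93 to 2.77 in WSB/EiJ, against 3.17 to 3.82 and 1.76 to 1.92 on the control diet. The sum over the list was 264 to 297 in A/J and 155 to 249 in WSB/EiJ. Clec4f, a lectin of Kupffer cells, was at 5.04, 5.2, 5.01 and 5.55 in A/J and at 2.52, 3.6, 4.16 and 2.11 in WSB/EiJ (-2.1 ± 0.43, adjusted p = 0.0033). Timd4, a receptor for dying cells, was 5.93-fold lower, and Vsig4, a complement receptor, 2.55-fold lower. Folr2, a folate receptor of macrophages, was 85.9-fold lower (-6.43 ± 0.28, adjusted p = 1.9e-06; 2 of 4 WSB/EiJ arrays well above background) and was not well above background on any WSB/EiJ control array. The difference between diets passed for 4 of the 11 markers, positive for Marco (2.23), Cd5l (1.1) and Id3 (0.85) and negative for Nr1h3 (-0.42), and did not pass for Clec4f, Vsig4, Timd4 and Folr2 (adjusted p between 0.13 and 0.98).

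Chemokines and inflammatory mediators were higher at 14 of 26 and lower at 3 (median 1.07). Ccl2, which recruits monocytes, was at 2.49, 1.55, 2.71 and -0.01 in A/J and at 3.88, 3.5, 3.71 and 3.63 in WSB/EiJ (2 ± 0.54, adjusted p = 0.013). Cxcl14 was 18.9-fold higher (4.24 ± 0.51), Ccl6 was 5.14-fold higher (2.36 ± 0.21) and Cxcl12, a retention signal for blood cells, was 2.94-fold lower (-1.56 ± 0.13). Acute phase genes were divided, 11 of 24 higher and 9 lower, with a median of -0.11 that was 0.28 under quantile normalization, 0.27 after normexp correction, 0.2 under spike-in scaling and 0.07 under median centring. Lcn2, lipocalin-2, was at 4.18, 3.11, 4.62 and 2.01 in A/J and at 7.81, 7.75, 7.59 and 7.53 in WSB/EiJ (4.19 ± 0.51, adjusted p = 0.00025). Saa1, serum amyloid A, was 2.37-fold higher, the orosomucoid Orm3 27.2-fold higher, and Apcs, serum amyloid P, 5.78-fold lower.

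Interferon response genes were higher at 19 of 31 and lower at 5 (median 1), against 3 higher and 14 lower on the control diet (median -0.75). Oas1a, an antiviral RNA sensor, was at 3.59, 3.26, 3.52 and 2.58 in A/J and at 6.81, 6.72, 7.06 and 6.57 in WSB/EiJ, 11.7-fold higher (3.55 ± 0.23, adjusted p = 1e-05). On the control diet it did not pass (-0.69 ± 0.25, adjusted p = 0.053). Ifi27l2a was 5.93-fold higher on the deficient diet (2.57 ± 0.24) and lower on the control diet (-1.62 ± 0.49). Oas1g was not well above background on any A/J array and was at least 3.72-fold higher. Mx1, an antiviral GTPase, was among those lower (-1.77), and on the control diet it was not well above background on any WSB/EiJ array.

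Class II antigen presentation genes gave no single direction, 3 of 11 higher and 2 lower (25.5% and 35.2% of all genes), with a median of 0.9. On the control diet 9 were lower and 1 higher (median -2.06), with 4 members not well above background on any WSB/EiJ array. The difference between diets passed for 10 of the 11. H2-Ea was at -3.35, -4.62, -3.95 and -6.45 in A/J and at 2.27, 2.08, 1.45 and 2.29 in WSB/EiJ (6.62 ± 0.61, adjusted p = 6.3e-05; 6 without A/J deficient replicate 4), with 2 of 4 A/J arrays well above background. H2-Eb1 was 19.6-fold lower (-4.29 ± 0.56), and H2-Aa, not well above background on any WSB/EiJ array, at least 11.4-fold lower. Class I and immunoproteasome genes were higher at 5 of 20, near the 25.5% of all genes, and lower at 4, with 9 higher and 1 lower under spike-in scaling. Among those called were the transporter subunit Tap2 (0.91 ± 0.13) and the class I chain H2-D1 (-0.68 ± 0.08). These genes are among the most polymorphic in the mouse, and the part of probe match in their values was not tested. Among T, NK and B lymphocyte markers 0 of 16 were higher and 3 lower at an adjusted p of 0.05, with summed signals of 37.7 to 61.2 in A/J and 19.4 to 44.1 in WSB/EiJ. WSB/EiJ deficient replicate 4 stood apart, with a mean level of 0.59 against -1.92 to -1.86 on the other 3 arrays, and without it the median of the list went from 0.14 to -0.46. Of those, Cd4 differed by -1.37 ± 0.25 (adjusted p = 0.0022), Nkg7 by -0.47 ± 0.13 with a second probe at 0.34, and Jchain by -2.85 ± 1.01, its WSB/EiJ replicate 4 lying among the A/J arrays at -0.15 and its call lost when any of several single arrays was left out.

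Biliary and progenitor markers were higher at 11 of 17 and lower at 2 (median 1.78), with summed signals of 34.8 to 59.4 in A/J and 75.2 to 130 in WSB/EiJ. Sox9, a transcription factor of bile duct cells and reactive hepatocytes, was at -3.63, -3.04, -3.05 and -3.23 in A/J and at 1.41, 1.35, 0.04 and 1.82 in WSB/EiJ, 21-fold higher (4.39 ± 0.36, adjusted p = 3.5e-05), and 4.1-fold higher on the control diet. Sox4 was 8.43-fold higher (3.07 ± 0.26), and the integrin Itga6 was 3.43-fold higher on the deficient diet and 2.61-fold on the control diet. Krt19 and Epcam, defining keratin and adhesion molecules of bile ducts, differed by 3.03 ± 0.47 and 3.54 ± 0.49, and Krt7, also a duct keratin, did not pass (0.99 ± 0.5, adjusted p = 0.12). Of the members lower in WSB/EiJ, Onecut1, a liver and duct transcription factor, differed by -1.73 ± 0.5 (adjusted p = 0.017).

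Among Ly6, S100 and annexin genes, 17 of 23 were higher and 3 lower. Anxa1, a regulator of inflammation, was 6.02-fold higher (2.59 ± 0.22), and Anxa5 was 2.77-fold higher on the deficient diet and 4.41-fold lower on the control diet. Ly6a, the stem cell antigen Sca-1, was at 1.76, 1.01, 0.54 and -0.44 in A/J and at 3.34, 2.93, 2.91 and 2.72 in WSB/EiJ (2.26 ± 0.42, adjusted p = 0.0021), and on the control diet it was 82.3-fold lower in WSB/EiJ (-6.36 ± 0.51). Ly6d was 6.72-fold higher (2.75 ± 0.58, adjusted p = 0.0042), and its difference was 2.14 without A/J deficient replicate 4. Nrg1, a growth factor of the epidermal growth factor family, was 5.87-fold higher (2.55 ± 0.48), and Spink1, a trypsin inhibitor, 9.91-fold higher (3.31 ± 0.42). Rad51b, a DNA repair gene, differed by 0.69 ± 0.25 (adjusted p = 0.039), and its call was lost without any of several single arrays.

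**Figure D3:**
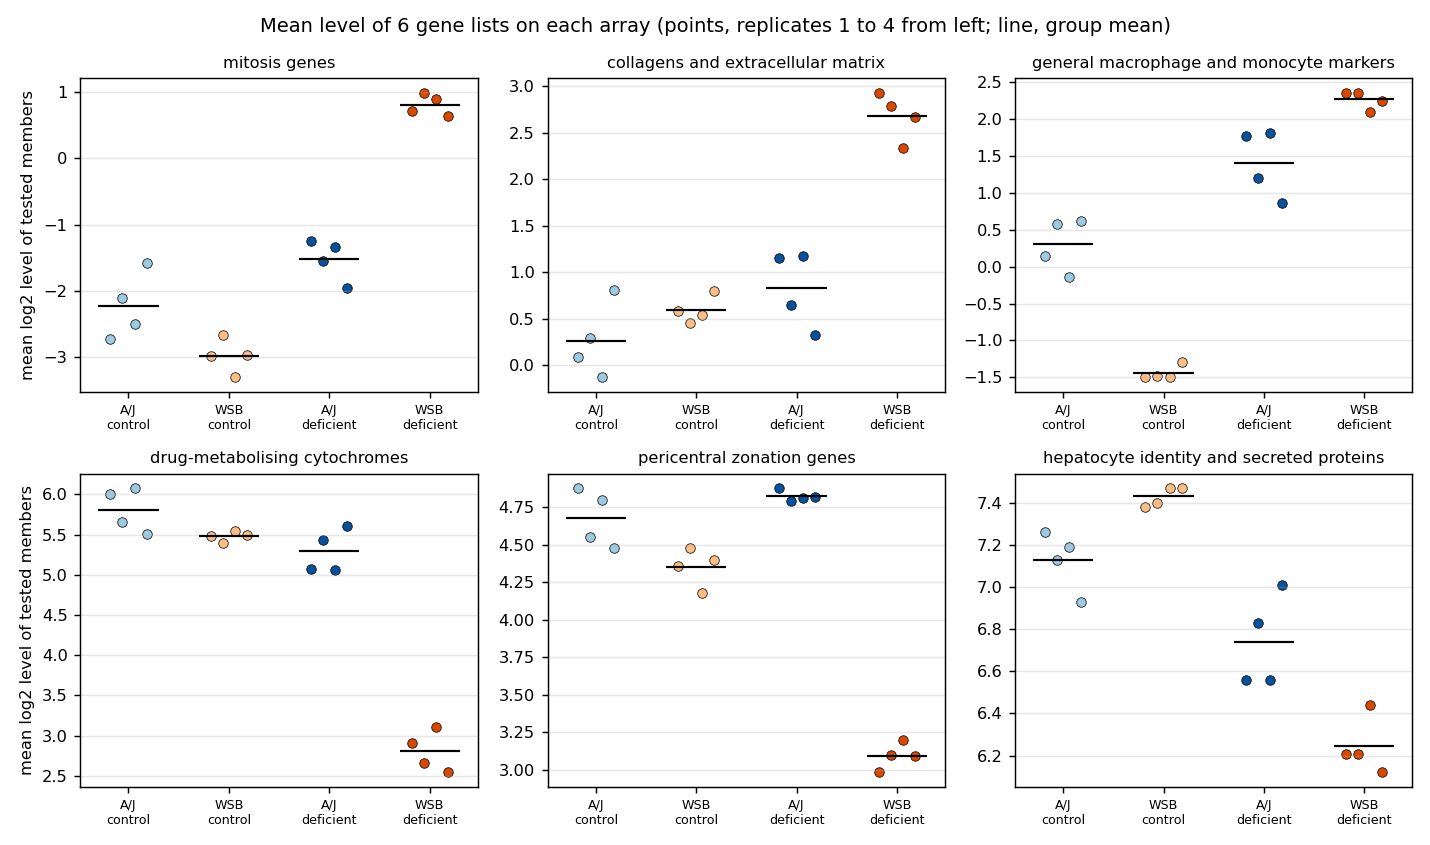
Mean level of the tested members of 6 gene lists on each array, as log2 signal minus the array's 75th percentile; points are replicates 1 to 4 from left to right, lines are group means, pale points the control diet and dark points the deficient diet. WSB/EiJ on the deficient diet lies between 0.64 and 0.99 for mitosis genes and between 2.54 and 3.1 for cytochromes, outside the range of the other 3 groups.

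Of 33 drug-metabolising cytochromes, which oxidise drugs, steroids and fatty acids, 26 were lower and 4 higher (35.2% of all genes were lower), with a median of -1.74 against 0.07 on the control diet. The mean level of the list was 5.07, 5.43, 5.06 and 5.6 in A/J and 2.91, 2.66, 3.1 and 2.54 in WSB/EiJ, and on the control diet it was 5.51 to 6.08 and 5.4 to 5.54. Cyp2c37, which makes signalling lipids from arachidonic acid, was at 4.25, 4.81, 4.15 and 5.07 in A/J and at -2.84, -3.39, -2.02 and -3.71 in WSB/EiJ, 189-fold lower (-7.56 ± 0.38, adjusted p = 3.6e-06; probe on chromosome 19, 40086467 to 40086526, mm9). Its other probe differed by -6.66, and the control difference was -0.68 ± 0.19.

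The neighbouring Cyp2c54 and Cyp2c50 were 89.6-fold and 74.9-fold lower on the deficient diet and did not pass on the control diet (-0.02 ± 0.12 and 0.17 ± 0.14). Their differences between diets, -6.46 and -6.4, were among the most negative of all. Genes of this family are similar in sequence and may share signal between probes. Cyp2c29 differed less (-1.31 ± 0.14). Cyp2b10, the classical target of the receptor CAR, was at 5.85, 6.52, 5.9 and 6.8 in A/J and at -0.51, -1.79, -0.13 and -1.16 in WSB/EiJ, 143-fold lower (-7.16 ± 0.38, adjusted p = 4.6e-06) and 5.05-fold lower on the control diet. CAR itself, Nr1i3, was 5.47-fold lower on the deficient diet (-2.45 ± 0.23, adjusted p = 7.1e-05) and did not pass on the control diet (0.47, adjusted p = 0.12). Cyp3a13 (1.39) and Cyp2c23 (0.99) were among the 4 members higher in WSB/EiJ.

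Sulfotransferases and glucuronosyltransferases, which conjugate hormones and drugs, were lower at 15 of 19 and higher at 1 (median -0.99, and 0.69 on the control diet). Ugt3a2 was 37.7-fold lower (-5.24 ± 0.13, adjusted p = 4.1e-07). Sult1c2 was 127-fold lower (-6.99 ± 0.22) and 108-fold lower on the control diet, where 1 of 4 WSB/EiJ arrays was well above background. Sult1e1, which inactivates oestrogens, was the member higher in WSB/EiJ: it lay between -2.31 and -0.98 in A/J and between 4.63 and 5.89 in WSB/EiJ (6.99 ± 0.35, adjusted p = 3.7e-06), and was 192-fold higher on the control diet. Inmt, a methyltransferase of indoles and thioethers, was at 7.94, 8.17, 7.59 and 8.62 in A/J and at 0.91, 0.04, 1.3 and 1.98 in WSB/EiJ, 130-fold lower (-7.02 ± 0.4, adjusted p = 6.4e-06) and 5.61-fold lower on the control diet.

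Pericentral genes, active around the central vein under Wnt signalling, were lower at 14 of 16 and higher at none (median -1.57). Spike-in scaling gave 13 lower and 1 higher. Glul, glutamine synthetase, was at 6.15, 6.18, 5.79 and 5.87 in A/J and at 2.27, 2.59, 2.62 and 2.35 in WSB/EiJ, 11.6-fold lower (-3.54 ± 0.13, adjusted p = 9e-07), and 3.33-fold lower on the control diet. Oat, ornithine aminotransferase of the same zone, was 8.9-fold lower (-3.15 ± 0.12). Periportal and urea cycle genes did not share that direction, with 7 of 20 higher and 4 lower (median 0.37). Among them Cdh1, E-cadherin, was 4.64-fold higher (2.22 ± 0.15) and Hsd17b13, a lipid droplet enzyme, 1.72-fold higher, while Cps1, the first enzyme of the urea cycle, did not pass (0 ± 0.23).

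Hepatocyte identity and secreted proteins were lower at 25 of 37 and higher at 3 (median -0.53), a count that the scaling moved between 13 and 26. Fgb, the fibrinogen beta chain, was 2.64-fold lower (-1.4 ± 0.11), Serpina6, the corticosteroid carrier, 4.21-fold lower (-2.07 ± 0.11) and Gys2, liver glycogen synthase, 3.74-fold lower (-1.9 ± 0.13). Alb, albumin, was at 10.69, 10.8, 10.76 and 11.08 in A/J and at 10.24, 10.15, 10.45 and 10.32 in WSB/EiJ (-0.54 ± 0.11, adjusted p = 0.0035), a difference of 0.02 under quantile normalization. Complement genes were lower at 13 of 25 and higher at 5 (median -0.28), but lower at 6 and higher at 6 under quantile normalization and lower at 3 and higher at 6 under spike-in scaling (median 0.03). Hc, complement C5, which A/J mice are known to lack because of a coding deletion, was at 6.02, 5.88, 5.64 and 6.06 in A/J and at 8.08, 8.24, 8.4 and 8.19 in WSB/EiJ, 5.02-fold higher (2.33 ± 0.12, adjusted p = 4e-06). Dysf, dysferlin, disrupted by a retrotransposon in A/J, was not well above background on any A/J array and at least 37.4-fold higher in WSB/EiJ. Hc also differed on the control diet (2.75 ± 0.11), and Dysf was again well above background on all 4 WSB/EiJ arrays and no A/J array, as the strain labels give.

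Lipid metabolism genes were mostly lower. Of 26 genes of fatty acid oxidation and ketogenesis, 21 were lower and 2 higher (median -0.87). Cyp4a14 and Cyp4a10, omega-hydroxylases controlled by PPAR-alpha, were 32.1-fold and 14.9-fold lower (-5.01 ± 0.42 and -3.9 ± 0.28), and Cyp4a14 was 382-fold lower on the control diet. Bdh1, which converts ketone bodies, was 2.24-fold lower (-1.16 ± 0.09). Pdk4, an inhibitor of pyruvate dehydrogenase, was a member higher in WSB/EiJ (1.82).

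Genes of fatty acid and triglyceride synthesis were lower at 15 of 24 and higher at 2 (median -0.78). This compares with 13 lower and 2 higher on the control diet (median -0.49). Thrsp, a lipogenic regulator, was 15.1-fold lower (-3.92 ± 0.23, adjusted p = 6.9e-06), and Elovl2, an elongase of polyunsaturated fatty acids, 4.72-fold lower. Mlxipl, the sugar-sensing factor ChREBP, was 2.65-fold lower (-1.41 ± 0.07), with a second probe at -0.41. Scd1, which desaturates stearate, was at 6.59, 6.24, 6.21 and 7.38 in A/J and at 4.79, 4.83, 5.07 and 5.3 in WSB/EiJ (-1.61 ± 0.26, adjusted p = 0.0012), a smaller gap than on the control diet (-3.26 ± 0.31; difference between diets 1.65, adjusted p = 0.0057). Fasn, fatty acid synthase, did not pass (0.1 ± 0.27, adjusted p = 0.75). Mogat1, which makes diglyceride, was 15.7-fold lower (-3.98 ± 0.49).

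Lipid droplet and PPAR-gamma targets were mixed, 3 of 18 higher and 7 lower. Pparg was at 2.6, 2.29, 2.93 and 2.27 in A/J and at 1.3, 1.24, 0.95 and 1.27 in WSB/EiJ, 2.52-fold lower (-1.33 ± 0.16, adjusted p = 0.00026). Plin2, the coat protein of hepatocyte lipid droplets, overlapped between strains, at 7.32 to 7.61 in A/J and 7.21 to 7.53 in WSB/EiJ (-0.07 ± 0.11, adjusted p = 0.59). Cidec (1.25 ± 0.59, adjusted p = 0.098), a droplet fusion protein, and Cd36 (-0.2 ± 0.09, adjusted p = 0.098), a fatty acid transporter, did not pass either. Fitm2, which helps droplets bud, was 25.1-fold lower on its brightest probe (-4.65 ± 0.13), but its other probe differed by -0.59. Lpl, lipoprotein lipase, was 2.42-fold higher (1.27 ± 0.08), with levels between 4.12 and 4.17 in A/J and between 5.28 and 5.53 in WSB/EiJ. Apolipoprotein and lipoprotein assembly genes were lower at 15 of 22 and higher at 4, and lower at 8 under spike-in scaling: Apoa1 was 1.94-fold lower (-0.96 ± 0.13) and Apoa4 2.33-fold higher (1.22 ± 0.27).

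Of 23 cholesterol synthesis genes, 16 were lower and 0 higher (median -0.89), and under spike-in scaling 13 were lower and 3 higher. Msmo1, a sterol oxidase, was at 6.45, 6.01, 6.5 and 6.94 in A/J and at 4.53, 4.58, 4.37 and 4.54 in WSB/EiJ (-1.97 ± 0.18, adjusted p = 6.1e-05). Hsd17b7 was 3.63-fold lower, and the sterol carrier Stard4 8.09-fold lower (-3.02 ± 0.11). Bile acid synthesis and transport genes were lower at 17 of 23 and higher at 2 (median -1.05). Cyp7a1, which controls the first step from cholesterol to bile acids, was at 3.03, 1.88, 4.12 and 3.11 in A/J and at -0.85, -0.13, 0.97 and -1.63 in WSB/EiJ (-3.45 ± 0.62, adjusted p = 0.0019), and was lower on the control diet as well (-2.46 ± 0.33). The uptake carrier Slco1b2 was 3.65-fold lower (-1.87 ± 0.11), and Abcg8, which exports sterols into bile, 12.6-fold lower (-3.65 ± 0.28).

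The lists nearest to the missing nutrients (choline, methionine cycle and folate) each held more lower than higher members, and some members went the other way. Of 19 genes of choline and phosphatidylcholine metabolism, 15 were lower and 3 higher (median -0.49), and under spike-in scaling 7 were lower and 4 higher. Chka, the kinase that traps choline for phosphatidylcholine synthesis, was at 2.77, 2.66, 2.94 and 2.51 in A/J and at 4.41, 4.62, 4.46 and 4.55 in WSB/EiJ, 3.46-fold higher (1.79 ± 0.11, adjusted p = 8.2e-06), and 3.17-fold higher on the control diet. Chpt1, which completes that pathway, was 2.48-fold lower (-1.31 ± 0.15) on the deficient diet and higher on the control diet (0.48 ± 0.13). Pemt, which methylates phosphatidylethanolamine instead, was at 6.69, 6.73, 6.53 and 7.07 in A/J and at 6.29, 6.12, 6.25 and 6.01 in WSB/EiJ (-0.59 ± 0.13, adjusted p = 0.0046); with spike-in scaling it did not pass (-0.28, adjusted p = 0.051). Slc44a4, a choline transporter-like protein not well above background in A/J, was at least 2.87-fold higher.

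In the methionine cycle 8 of 19 genes were lower and 2 higher, near the 35.2% and below the 25.5% of all genes, with a median of -0.17 that was 0.14 under spike-in scaling. Mat1a, which makes S-adenosylmethionine in hepatocytes, was at 7.22, 7.51, 7.46 and 7.75 in A/J and at 5.54, 5.12, 6.13 and 4.81 in WSB/EiJ, 4.24-fold lower (-2.08 ± 0.27, adjusted p = 0.00036). Ahcy, which clears the product of methylation, was 8.95-fold lower on its brightest probe (-3.16 ± 0.19), and its other probes differed by -1.59 and -1.52. Gamt, which uses methyl groups to make creatine, was 2.34-fold lower (-1.23 ± 0.13). Nnmt, which spends methyl groups on nicotinamide, was at -1.29, -1.42, -1.96 and -2.23 in A/J and at 1.14, 0.82, 2.27 and 1.57 in WSB/EiJ (3.17 ± 0.34, adjusted p = 0.00013), with a second probe at 0.62, and the gap was wider on the control diet (5.86 ± 0.42; difference between diets -2.69, adjusted p = 0.0015). Gnmt (0.21 ± 0.27), Bhmt (-0.14 ± 0.24) and Cbs (-0.14 ± 0.16), which take up surplus methyl groups, remethylate homocysteine or drain it to cysteine, did not pass, and their levels overlapped.

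Of 20 folate genes, 9 were lower and 4 higher (median -0.51). The mitochondrial enzyme Mthfd2, found mostly in dividing cells, was 5.46-fold higher (2.45 ± 0.28), and the cytosolic Shmt1 2.98-fold lower (-1.58 ± 0.14). Among DNA methyltransferases and methyl-CpG readers, 8 of 14 were higher and 3 lower (median 0.3). The control diet gave 6 higher and 1 lower (median 0.26). Without A/J deficient replicate 4 the deficient diet gave 5 higher and 3 lower. Of all genes 25.5% were higher and 35.2% lower on that diet. Dnmt3b, a de novo methyltransferase, differed by 1.79 ± 0.16 (adjusted p = 6.5e-05; its other probes by 0.22 and 1.14) and the glycosylase Mbd4 by 1.25 ± 0.18. Uhrf2 differed by 0.68 ± 0.08 on its brightest probe and 0 on the other.

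Amino acid and unfolded protein stress genes were higher at 12 of 28 and lower at 3. Asns, asparagine synthetase, was 10.3-fold higher (3.37 ± 0.36, adjusted p = 0.00013) and 24.7-fold higher on the control diet. Ddit3, the stress factor CHOP, was 3.21-fold higher (1.68 ± 0.22) and did not differ beyond its spread on the control diet (-0.02 ± 0.27). Glutathione and antioxidant genes were divided, 12 of 33 higher and 15 lower, with Gpx7 7.12-fold higher and Gsta3 3.61-fold lower. Iron handling genes gave no stable direction, with 11 of 24 lower and 5 higher here, 7 and 7 under quantile normalization, and 4 lower and 9 higher under spike-in scaling. Hamp2, a hepcidin-like gene, was at 3.92, 4.45, 3.95 and 5.44 in A/J and at 1.31, -1.52, -1.64 and -1.89 in WSB/EiJ (-5.38 ± 0.72, adjusted p = 0.00041), with a difference of -6.13 without WSB/EiJ deficient replicate 1. It was lower on the control diet too (-6.82 ± 0.58).

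Circadian clock genes differed widely: 10 of 18 were lower in WSB/EiJ and 4 higher. The core factor ARNTL with CLOCK binds E-boxes (CACGTG) of its targets, among them the genes of its repressors, while DBP, TEF and HLF bind D-boxes (TTATGTAA is one form). Both were searched on both strands in the 250 bases before the start. Of the 18 tested clock genes 15 matched RefSeq's table. CACGTG was in 5 (33.3%) against 6.86% of all genes. The share was 33.3% alike among those called higher (1 of 3), called lower (3 of 9) and not called (1 of 3). Groups this small cannot show whether the motif goes with direction. TTATGTAA, found in 0.977% of all genes, was only in Per3. Per1, which also held CACGTG, is not printed. The windows of Ciart, Tef, Bhlhe41, Cry1 and Per3 are printed with these matches in capitals, chosen after the values were seen.
Ciart: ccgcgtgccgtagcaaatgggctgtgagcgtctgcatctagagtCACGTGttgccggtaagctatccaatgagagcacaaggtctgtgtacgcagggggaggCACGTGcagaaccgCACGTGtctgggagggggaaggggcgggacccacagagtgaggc
Tef: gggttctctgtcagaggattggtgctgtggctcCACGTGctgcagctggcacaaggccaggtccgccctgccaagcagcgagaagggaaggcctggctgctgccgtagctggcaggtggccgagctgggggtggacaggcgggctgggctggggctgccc
Bhlhe41: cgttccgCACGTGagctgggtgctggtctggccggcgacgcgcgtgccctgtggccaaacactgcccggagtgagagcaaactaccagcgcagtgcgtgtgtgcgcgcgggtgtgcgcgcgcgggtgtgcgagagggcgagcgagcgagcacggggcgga
Cry1: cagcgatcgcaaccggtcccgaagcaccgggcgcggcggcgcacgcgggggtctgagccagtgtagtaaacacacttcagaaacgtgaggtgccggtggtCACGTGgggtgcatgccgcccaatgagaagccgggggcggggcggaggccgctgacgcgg
Per3: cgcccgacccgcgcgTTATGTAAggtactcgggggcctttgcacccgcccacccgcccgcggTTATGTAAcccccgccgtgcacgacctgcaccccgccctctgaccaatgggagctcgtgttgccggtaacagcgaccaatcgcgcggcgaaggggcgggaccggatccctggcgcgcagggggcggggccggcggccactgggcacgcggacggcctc
In GRCm38.p6 these are chr3:95882229-95882388 (minus strand), chr15:81802513-81802672 (plus strand), chr6:145865421-145865580 (minus strand), chr10:85185055-85185214 (minus strand) and chr4:151044666-151044885 (minus strand).

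Dbp, an output factor of the clock, was at 6.93, 6.59, 6.75 and 6.82 in A/J and at 0.92, 0.34, 0.5 and 0.5 in WSB/EiJ, 73.9-fold lower (-6.21 ± 0.14, adjusted p = 4.1e-07; probe on chromosome 7, 52965322 to 52965381, mm9). On the control diet it was 12.1-fold lower (-3.6 ± 0.89), A/J control replicate 4 lying at 1.32 and the other A/J controls between 4.91 and 5.88. Tef was at 6.61, 6.66, 6.69 and 6.65 in A/J and at 3.67, 3.48, 3.31 and 3.34 in WSB/EiJ (-3.2 ± 0.09, adjusted p = 5.6e-07), and did not pass on the control diet (-0.21 ± 0.39). Nr1d1 and Nr1d2, the repressors REV-ERB alpha and beta, were 43.2-fold and 5.8-fold lower (-5.43 ± 0.24 and -2.54 ± 0.11). Ciart, another repressor, differed by -4.52 ± 0.6 (1 of 4 WSB/EiJ arrays well above background), Hlf by -3.52 ± 0.2, Per2 by -0.79 ± 0.21 and Cry2 by -0.65 ± 0.12. Bhlhe41 and Per3, well above background on none of the WSB/EiJ arrays, were at least 2.88-fold and 2.38-fold lower.

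Arntl, the activator, was on the other side, at -0.99, -0.49, -0.85 and -0.01 in A/J and at 1.92, 2.08, 2.13 and 1.96 in WSB/EiJ, 6.08-fold higher (2.6 ± 0.2, adjusted p = 2.7e-05) and 2.94-fold higher on the control diet. Cry1, not well above background on any A/J array, was at least 4.25-fold higher (adjusted p = 0.00036), and Nfil3, which represses D-box genes, differed by 0.83 ± 0.19. Per1, Clock, Rora and Bhlhe40 did not pass. The labels do not give the time of day of collection, which can set these levels, so time and strain cannot be told apart here. Genes outside the naming rule, here and in the other groups, were chosen after their values were seen.

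**Figure D4:**
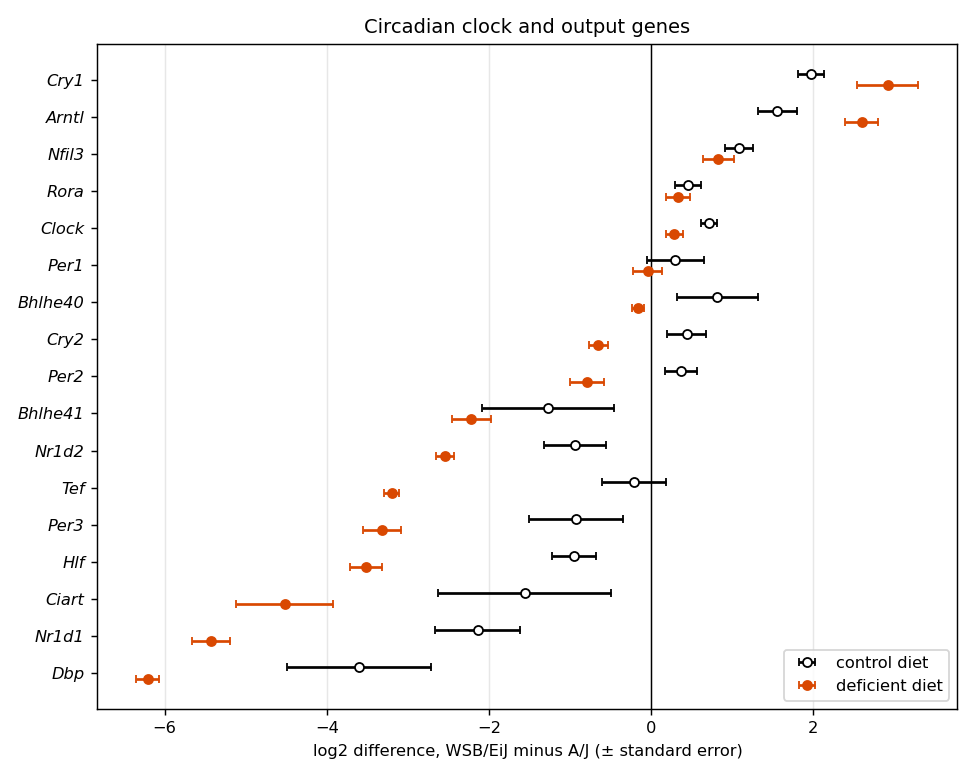
Log2 difference, WSB/EiJ minus A/J, of circadian clock and output genes on the control diet (open) and the deficient diet (filled), with bars for limma's standard error over 4 arrays per group. Dbp lies at -6.21 on the deficient diet and -3.6 on the control diet, and Cry1 and Arntl lie above 0 on both; points of Cry1, Per3 and Bhlhe41 are fitted values with 1 strain not above background.

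All mice were male. Male-biased liver genes were lower at 14 of 22 and higher at 3 (median -0.81), and lower at 9 and higher at 5 under spike-in scaling, while on the control diet 18 were higher and 1 lower (median 1.36). Hsd3b5, a steroid dehydrogenase of male liver, was at 6.22, 6.08, 5.06 and 6 in A/J and at 0.25, 1.49, 2.14 and 2.26 in WSB/EiJ, 19.8-fold lower (-4.31 ± 0.46, adjusted p = 0.00014), with 0.13 ± 0.2 on the control diet. Elovl3, a male-biased elongase, was lower on the deficient diet (-2.18 ± 0.64, adjusted p = 0.018), a call lost without A/J deficient replicate 2 (-1.92, adjusted p = 0.05), and higher on the control diet (2.6 ± 0.33). Female-biased genes were lower at 13 of 19 and higher at 5 (median -1.96), and already lower at 14 and higher at 1 on the control diet (median -2.11). Cyp2b9 differed by -7.79 ± 0.38 (1 of 4 WSB/EiJ arrays well above background) and the thioesterase Acot3 by -4.2 ± 0.23. In the growth hormone and IGF axis, which sets sex-biased expression, 9 of 20 genes were lower and 3 higher (median -0.24). Under spike-in scaling 8 were lower and 5 higher (median 0.07). Of all genes 35.2% were lower and 25.5% higher. Prlr, the prolactin receptor, was 41.6-fold lower (-5.38 ± 0.16) and Igfbp1, an IGF carrier, 7.8-fold higher (2.96 ± 0.23).

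Several of the largest differences fell outside these lists. Ptgds, prostaglandin D synthase, was 64.5-fold higher (6.01 ± 0.32), Serpina3f 52-fold higher on its brightest probe with 0.91 on the other, Nat8f5 46.4-fold, Ctse, cathepsin E, 42-fold, Zfp979 32.6-fold and Csn3 28.6-fold. Of these, Csn3 did not differ beyond its spread on the control diet (-0.08 ± 0.24). Tmem14c, a mitochondrial protein of haem synthesis, was 101-fold lower and Wfdc21 63.2-fold lower (-6.66 ± 0.17 and -5.98 ± 0.45). Among genes not well above background in 1 strain, Serpina3a, Gldn, Slfn8 and Cd209b were at least 23.3-fold, 22.2-fold, 22-fold and 12.1-fold higher in WSB/EiJ. In the other direction, Mtnr1a, a melatonin receptor, was at least 77.4-fold lower, Raet1a 64.6-fold, Gabra3 47-fold, Slc22a29 41.5-fold and Nxpe2 39.6-fold. Over all probes of a gene, 227 genes higher in WSB/EiJ were not well above background on any A/J array, and 53 genes lower in WSB/EiJ were not on any WSB/EiJ array.

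On the control diet the strains differed at 7248 genes (47.3%), 4410 higher in WSB/EiJ and 2838 lower. Of the 9301 genes called on the deficient diet, 3187 were called in the same direction on the control diet (34.3%, or 44% of the control calls) and 1350 in the opposite one. The difference between the strain differences passed its own test at 8232 genes (53.7%), and at 5927 of the deficient calls (63.7%). Its value was positive at 2752 genes and negative at 5480. The directions on the control diet and between diets were counted under the main scaling only. Scaling moved the split on the deficient diet, so no excess of either direction is read from these counts. The median absolute difference was 0.37 on the control diet and 0.49 on the deficient diet. Opposite calls of at least 1 log2 unit on each diet numbered 207.

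The most positive differences between diets, among the genes given in full, were those of Ly6a (8.62, adjusted p = 1.6e-06), Ifi27l2b (5.04), Csn3 (4.92), Ly6d (4.6) and Cpe (4.52). Ifi27l2b was at 3.78, 2.74, 4.15 and 1.76 in A/J and at 5.88, 6.11, 6 and 6.03 in WSB/EiJ (2.9 ± 0.47). Cpe, a peptide-processing enzyme, was 24.5-fold higher (4.62 ± 0.58) and varied in A/J between -2.47 and 0. The most negative were those of Nuggc (-7.94, adjusted p = 5e-08), Cyp2c37, Cyp2c54, Cyp2c50 and Pax2 (-5.94). Nuggc was 22.5-fold higher in WSB/EiJ on the control diet and 10.9-fold lower on the deficient diet, at -0.14, -0.37, -0.5 and -0.55 in A/J and at -4.11, -4.34, -2.96 and -3.92 in WSB/EiJ. Pax2, a developmental transcription factor, was 8.93-fold lower (-3.16 ± 0.72) after being 6.85-fold higher on the control diet. Fgf21, a stress hormone of the liver, did not pass on the deficient diet (1.03 ± 0.48, adjusted p = 0.096) and was 8.76-fold lower in WSB/EiJ on the control diet. Ubd, an inflammation-induced ubiquitin-like protein, overlapped on the deficient diet (0.07 ± 0.76) and was 10.1-fold lower on the control diet.

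**Figure D5:**
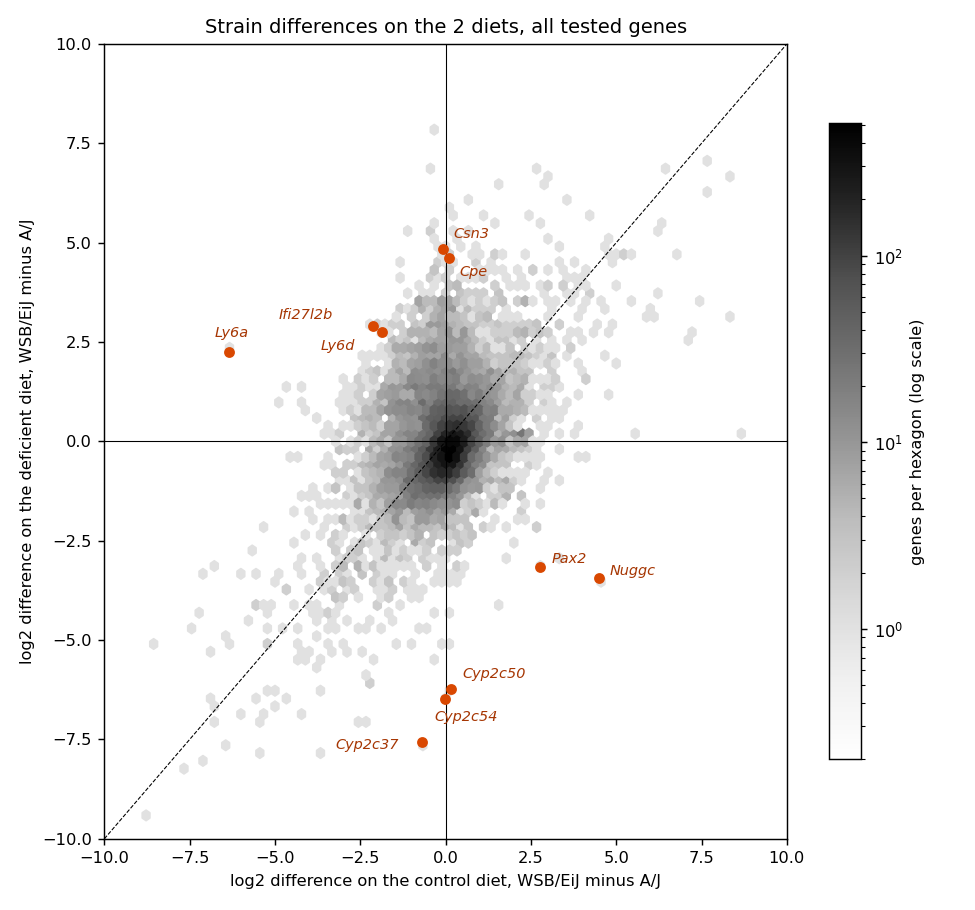
Strain differences of all 15318 genes, as log2 WSB/EiJ minus A/J, on the control diet (horizontal) and the deficient diet (vertical); grey hexagons give the number of genes on a log scale, and the dashed line marks equal differences. The 10 labelled genes had the most positive or negative difference between diets by the rule for naming genes: Ly6a lies at -6.36 and 2.26, Cyp2c37 at -0.68 and -7.56.

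Markers of other cells were measured beside these groups. Erythroid markers were lower at 5 of 6 (Alas2, of haem synthesis in red cells, by -2.2 ± 0.21), with summed signals of 416 to 743 in A/J and 265 to 449 in WSB/EiJ. Under quantile normalization, under spike-in scaling and without A/J deficient replicate 4, only 2 of the 6 were lower. On the control diet all 6 were lower, and the difference between diets passed for 0 of them. Liver endothelial markers were lower at 5 of 18 and higher at 2, no larger a share lower than the 35.2% of all genes, and under spike-in scaling 3 were lower and 5 higher. Among the lower were the sinusoidal scavenger receptor Stab2, by -1.72 ± 0.19 and the growth factor receptor Kdr, by -1.38 ± 0.11. The sums over the list were 134 to 164 in A/J and 98.3 to 119 in WSB/EiJ, while Pecam1 and Lyve1 did not pass. Neutrophil markers were lower at 3 of 7 and higher at 1 (sums 77.2 to 102 and 53.6 to 71), beside 35.2% and 25.5% of all genes. Spike-in scaling gave 2 lower and 2 higher. S100a8 was lower (-3.2 ± 0.47), with 1 of 4 WSB/EiJ arrays well above background, and S100a9 did not pass (-0.03 ± 0.41). Of the 6 tested mesothelial markers 3 were higher, Wt1 by 3.09 ± 0.47, while Msln, which defines that layer, did not pass (0.35 ± 0.42). The sums over that list overlapped, at 337 to 4690 in A/J and 881 to 1210 in WSB/EiJ. Pancreas markers were lower at 3 of 10, no larger a share than the 35.2% of all genes, and at 1 under spike-in scaling. Their sums overlapped (17.4 to 112 and 11.8 to 63.3). Amy2a5 differed by -0.68 ± 0.15, and the calls of Cela2a and Ins2 were lost when any of several single arrays was left out. Fat cell genes were near background, Lep on 0 of 8 arrays above it and Adipoq on 1 of 4 in each strain, and the call of Cfd (-3.48 ± 1.28), 1 of 3 tested, was lost without most single arrays. The part of these cells in the differences was not tested.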

How the data were processed

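RNA from mouse liver was hybridised to 1-colour Agilent arrays, and the intensities are the processed signals deposited by the authors, per the file headers from Feature Extraction 10.7, which subtracts background and detrends but does not scale between arrays. Processed signals of gene spots were taken to log2 and scaled to the 75th percentile of each array. Outlier spots were left out (1065 on these 8 arrays), spots of a probe were averaged, and a probe was kept where all 4 arrays of any of the 6 groups were well above background. A gene took its brightest probe, named through RefSeq accessions or symbols (32455 of 55681 probes named). The tests were limma's lmFit and eBayes (limma 3.58.1, R 4.3.3) on the 8 deficient arrays, on the 8 control arrays, and on all 16 for the difference between diets. The number of arrays limits the precision. Probe positions are those of the files (mm9), and promoter letters are RefSeq's for GRCm38.p6.

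Genes named are the 10 largest differences each way, the 5 largest bounds each way, the 5 largest differences between diets each way, a panel of 56 genes and up to 3 members of each of 48 lists with the lowest adjusted p; predicted gene models were not named among the first 3 kinds. The comparison, lists and panel were chosen with earlier results of these data known, so their directions are no independent support. Alternatives covered scaling, background, filters, probe choice, slide, replicate block and left-out arrays; leaving out A/J deficient replicate 4 together with WSB/EiJ deficient replicate 3 was chosen after seeing the data. The deposited value table, which equals the processed signal multiplied by a constant for each array, served as an alternative. Some genes are not reported here, though they count in the lists. The analysis was tested on simulated data.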

Additional observations from a re-analysis of the deposited data

Results flagged for a closer look

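A single array stood apart from the other 3 of its group at 22 of 416 gene-by-group sets of named genes, and chance flags about 1 in 20. WSB/EiJ deficient replicate 3 accounted for 12 of them: Cyp2c50 (1.39), Cpe (2.7), Fgf21 (3.66), Timp1 (2), Trem2 (4.47), Fitm2 (0.6), Bex1 (1.29), Gys2 (5.47), Slc44a4 (-3.95), Cdkn2b (-1.61), Cxcl14 (2.11) and Gpm6a (-2.59), as levels on that array. The others were Hamp2 (1.31), Alas2 (2.25) and Hbb-bt (3.75) in WSB/EiJ replicate 1, Nxpe2 (-7.41) in replicate 2 and Jchain (-0.15) in replicate 4. In A/J they were Cd209b (-6.24) and Cela2a (1.26) in replicate 1, Folr2 (0.98) in replicate 3, and Slfn8 (-4.23) and Gpm6a (-3.8) in replicate 4.

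The strain difference differed between diets, by the test of that difference, at 8232 genes. Its log2 value, deficient minus control, was 8.62 for Ly6a, 5.04 for Ifi27l2b, 4.92 for Csn3, 4.6 for Ly6d and 4.52 for Cpe. It was -7.94 for Nuggc, -6.88 for Cyp2c37, -6.46 for Cyp2c54, -6.4 for Cyp2c50 and -5.94 for Pax2. Other named genes called in opposite directions on the diets had positive values for Cd14 (4.21), Ifi27l2a (4.19), Spink1 (4.01), Lyz2 (3.87), Mki67 (3.77), Anxa5 (3.61), Cd68 (3.01), Cdkn2b (2.8), Csf2ra (2.45), Rad51b (2.03) and Tlr4 (1.77). Negative values were those of Serpina12 (-5.79), Elovl3 (-4.77), Chpt1 (-1.79), Ly6g (-1.34) and Mbl1 (-0.94).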

How the results depend on the processing

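The 9301 calls stayed within 1.5 times under every alternative run except a minimum difference of 1 log2 unit, which left 3483 (1962 higher, 1521 lower), 2350 on the control diet and 3464 for the difference between diets. Lower genes numbered 3575 under median centring and 2680 under spike-in scaling. Leaving out single arrays gave 8153 to 9510 calls, 6388 to 7193 on the control diet and 7459 to 8510 for the difference between diets. Without both A/J deficient replicate 4 and A/J control replicate 4, the difference between diets passed at 7057 genes. Same-numbered samples did not deviate together (correlations 0.07, 0.08, -0.41 and -0.27), and a fit with the replicate block gave 7892 calls. Signs turned for genes that did not pass, and for Alb (0.02 under quantile normalization). Under quantile normalization, median centring, spike-in scaling and normexp in turn, Plin2 was 0.17, 0.11, 0.24 and 0.15, Bhmt 0.23, 0.05, 0.17 and 0.2, and Cbs 0.11, 0.05, 0.17 and 0.08; Cd36 was 0.11 with spike-in scaling. Without single arrays Bhmt ranged from -0.31 to 0, and Cbs lay at 0 without A/J deficient replicate 4. Ubd was -0.39 with slide as a fixed and -0.18 as a random block, -0.1 with array weights, -0.69 to 0.52 without single arrays (-0.69, -0.06, -0.06 and -0.02 where it turned) and -0.54 without both arrays nearest their controls. Fasn was -0.05 without A/J deficient replicate 3 and 0.39, past the threshold, without A/J deficient replicate 4. Ccnd1 ranged from -0.04 to 0.17 without single arrays (-0.02 without WSB/EiJ deficient replicate 1) and was -0.03 without both. The cause was not tested. Of the named genes' alternative values, 6264 counted as unchanged, 28 turned, 111 lost and 14 gained the call. Unchanged meant the same direction and side of the threshold. Within single slides, which had no test, it meant a value less than 1 standard deviation from the main one. A further 209 within-slide values moved by at least that much. A change of sign within slides counted only for genes that passed. Of the list medians' alternative values, 999 counted as unchanged and 153 as moved, by a standard deviation of the list's mean level.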
